A study of Homo sapiens with 6 samples.

Results

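A set of 9 genes for antioxidant enzymes and transporters was followed through SH-SY5Y cells depleted of CSA or of CSB. The genes were NQO1, AKR1C1, HMOX1, SLC7A11, GCLC, GCLM, TXNRD1, SRXN1 and TKT. They were picked by exact symbol out of 32575 genes listed in the deposited tables. All 9 had reads in every library, and all 9 passed the filter on low values that left 28388 genes for testing. SH-SY5Y is a human neuroblastoma line of neuroblast character. CSA (gene ERCC8) and CSB (gene ERCC6) act in transcription-coupled DNA repair, and loss of either causes Cockayne syndrome. Cells were infected with lentivirus that expressed a short hairpin RNA, aimed at CSA or CSB or serving as control, so that the control cells had also passed through infection and puromycin selection. They were then cultured for 2 to 3 weeks before Trizol extraction of total RNA, of which 1 µg went into each TruSeq library. The design has 3 groups of 2 libraries. The labels name the groups WT, CSAmut and CSBmut, whereas the growth protocol describes hairpins, so the depleted cells are called knockdowns here. The sources used here do not say if both libraries of a group stem from separate infections, nor if each target was hit with 1 hairpin or several. The p-values therefore measure the spread between these libraries, which may be technical.

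NRF2 (gene NFE2L2) is a transcription factor that the adaptor KEAP1 holds in the cytoplasm and passes to a CUL3 ubiquitin ligase for degradation. Oxidants and electrophiles modify KEAP1, NRF2 then accumulates, pairs with a small MAF protein and binds antioxidant response elements near its target genes. BACH1 and BACH2 compete for the same elements as repressors. The 9 genes are known targets of this pathway and serve different ends: removal of quinones and carbonyls (NQO1, AKR1C1), breakdown of haem (HMOX1), cystine uptake and glutathione synthesis (SLC7A11, GCLC, GCLM), the thioredoxin and peroxiredoxin cycle (TXNRD1, SRXN1) and the pentose phosphate pathway (TKT). The question put to the data was how the transcripts of these arms stood in each knockdown.

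The core of an antioxidant response element was searched in the RefSeq promoter windows (GRCh38.p14, 250 bases before to 50 after a gene's start) as TGACNNNGC on either strand, that is, also as GCNNNGTCA. Windows were at hand for 7 of the 9 genes, 8 windows in all; HMOX1 and SLC7A11 were not matched. The core letters stood in 3 of the 8 windows and belonged to 2 genes, GCLM and TXNRD1, against 4687 of all 35116 windows (13.3%). Sequence outside the windows was not searched, so a window without a match does not show that a gene lacks an element. An AP-1 site, searched as TGANTCA, whose letters can overlap the core, stood in none of the 8 and in 7.71% of all windows. These stretches are shown because they are the places near a start where the letters occur; a match is a description and not a measured binding site. Each is written 5′ to 3′ along the gene, with the core in capitals. The first is from GCLM (chr1:93909430-93909490, minus strand), 34 to 26 bases before the start. The next pair is from the upstream start of TXNRD1 (chr12:104215654-104215714 and chr12:104215745-104215805, plus strand), and the last is from its second start (chr12:104286904-104286964, plus strand).
GCLM: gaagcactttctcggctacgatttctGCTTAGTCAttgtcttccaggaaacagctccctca
TXNRD1 upstream start, distal: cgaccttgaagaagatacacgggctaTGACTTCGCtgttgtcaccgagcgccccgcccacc
TXNRD1 upstream start, proximal: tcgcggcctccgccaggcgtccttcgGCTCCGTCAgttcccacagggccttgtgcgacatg
TXNRD1 second start: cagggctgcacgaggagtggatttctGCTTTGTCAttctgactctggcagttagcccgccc
GCLM and TXNRD1, the genes with a core in their windows, both had their highest group mean in control and their lowest in the CSA knockdown. For GCLM the control and CSB knockdown libraries overlapped. The order was not particular to these genes, since SLC7A11, which had no window, shared it. TKT, without a core in its window, was also highest in control. TXNRD1 passed the test in both comparisons with control and GCLM in neither.

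The libraries held 19368272 to 26758162 gene-assigned reads, with 5.73 to 6.51% of the scaled counts on mitochondrial transcripts. A scaled count is a gene's read number divided by one size factor of its library, which makes libraries comparable but carries no gene length. The targeted genes followed the labels. ERCC8 stood at 219 and 217 scaled counts in the control libraries and at 61.8 and 57.2 in the CSA knockdown, a log2 difference of -1.86 ± 0.13 (SE; adjusted p = 8.75e-07). ERCC6 stood at 615 and 593 in control and at 258 and 302 in the CSB knockdown, a log2 difference of -1.11 ± 0.08 (SE; adjusted p = 2.13e-06). All 14 markers of adrenergic neuroblastoma cells had reads. Their summed scaled counts were 133227 to 137143 in control, 157575 to 162591 in the CSA knockdown, where 6 were higher and 3 lower, and 122783 to 123927 in the CSB knockdown, where 4 were higher and 5 lower. The summed scaled counts of 13 mesenchymal-type markers were 21052 to 22227 in control, 16016 to 16099.7 in the CSA knockdown and 32024.5 to 32109.7 in the CSB knockdown. Control replicate 2 stood apart in its haemoglobin reads: HBB was at 373 and HBA2 at 289 scaled counts there and at 0 in the other 5 libraries. For the 9 genes, each call that changed without that library is given beside its result, and for the pathway lists the counts without it are given.

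In the CSA knockdown, 6 of the 9 genes fell against control and 0 rose (limma, adjusted p below 0.05). These were SLC7A11, HMOX1, NQO1, AKR1C1, TXNRD1 and TKT. Of all tested genes, 18.8% passed the same test, 10.4% lower and 8.37% higher. Among the 13397 tested genes averaging 50 scaled counts or more, 2648 were lower and 2141 higher, a larger share. The median log2 difference was -0.55 over the 9 genes and 0.01 over all tested genes. Both CSA knockdown libraries lay under both control libraries for 8 of the 9 genes, SRXN1 being the exception, against 27.1% of all tested genes. The 9 genes were chosen with earlier results of these data known, among them the falls of NQO1 and TXNRD1 in this comparison. Setting them beside all genes is therefore a description and not a test of the set. When each library was left out in turn, 2 to 4 of the 9 genes passed. In bulk RNA, fewer cells making a transcript and less of it per cell cannot be told apart.

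In the CSB knockdown, AKR1C1 and NQO1 rose and TKT and TXNRD1 fell against control, so that 4 of the 9 genes passed the test. Of all tested genes, 23.6% passed, 14.8% higher and 8.86% lower. Among the 13397 tested genes averaging 50 scaled counts or more, 3714 were higher and 2321 lower, a larger share. The median log2 difference was 0.02 over the 9 genes and 0.10 over all tested genes. The CSB libraries lay above both control libraries for 3 of the 9 genes and under them for 2, against 36.5% and 22.2% of all tested genes. Leaving out 1 library left 2 to 4 genes past the test. The split over all genes depended on the scaling: 4191 genes were higher and 2515 lower on the deposited scale, and 3004 were higher and 3301 lower after TMM scaling.

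Set directly against each other, the knockdowns differed for 7 of the 9 genes, 6 of them higher in the CSB knockdown (AKR1C1, SLC7A11, HMOX1, NQO1, GCLC and TXNRD1) and 1, TKT, lower. Of all tested genes, 29.4% differed, 18.1% higher and 11.3% lower in the CSB knockdown. Among the 13397 tested genes averaging 50 scaled counts or more, 4255 were higher and 2797 lower there, a larger share. Both CSB libraries lay above both CSA libraries for 7 of the 9 genes and under them for 1, against 36.5% and 23.7% of all tested genes. Between 4 and 6 genes passed when 1 library was left out. The comparisons with control share the 2 control libraries, and the values of each are given side by side gene by gene.

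**Figure D1:**
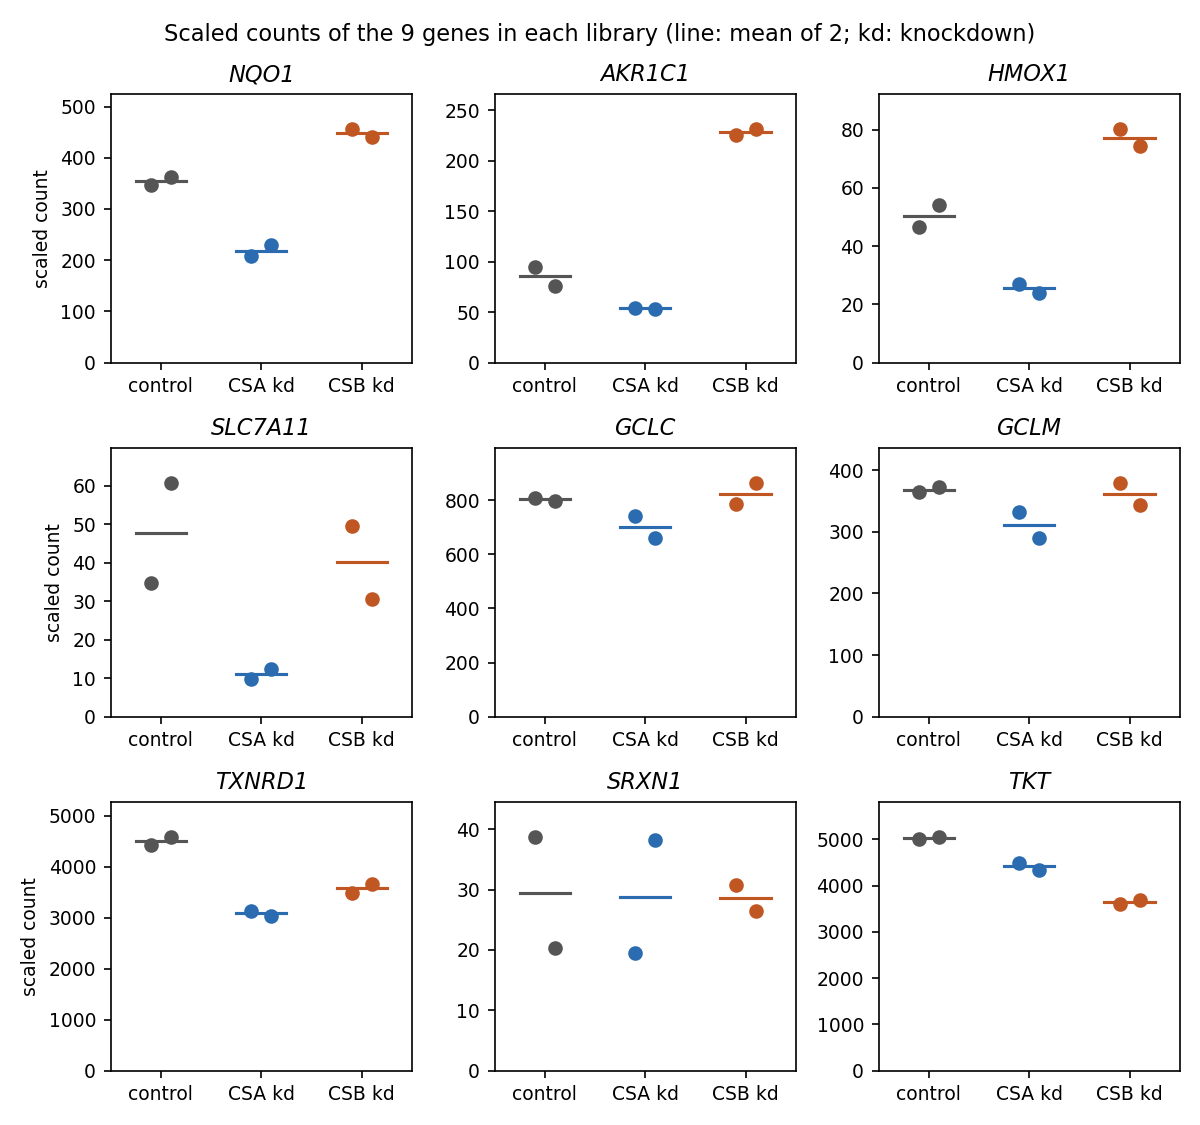
Scaled counts (y axis, from 0) of the 9 genes in each library (points) of the control, CSA knockdown and CSB knockdown groups (x axis), with the mean of 2 libraries as a line. NQO1, AKR1C1 and HMOX1 are lowest in the CSA knockdown and highest in the CSB knockdown, whereas TXNRD1 and TKT are highest in control.

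NQO1, on chromosome 16 (hg38, 69706996 to 69726951, minus strand), encodes a quinone reductase that spares cells the redox cycling of quinones. Its scaled counts were 346 and 362 in control, 208 and 229 in the CSA knockdown and, in the CSB knockdown, 457 and 439.7. The 3 groups did not overlap. NQO1 fell in the CSA knockdown by a log2 difference of -0.69 ± 0.08 (SE; 95% interval -0.88 to -0.51; adjusted p = 0.000104). It rose in the CSB knockdown by 0.34 ± 0.08 (SE; 95% interval 0.16 to 0.53; adjusted p = 0.0113). The difference between the knockdowns was 1.03 ± 0.08 (SE; adjusted p = 1.55e-06), or 2.05-fold. The fall in the CSA knockdown kept its call under all 19 alternatives. The rise in the CSB knockdown lost its call without control replicate 1 or 2 or CSB replicate 1 or 2, with adjusted p from 0.0981 to 0.136, and also by DESeq2 and without the mean-variance trend (largest adjusted p 0.177).

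AKR1C1 encodes an aldo-keto reductase that reduces carbonyls and progesterone. It was the gene of the 9 with the largest rise in the CSB knockdown. Its scaled counts were 94.5 and 76.2 in control, 54.2 and 53.4 in the CSA knockdown and, in the CSB knockdown, 226 and 232. No value of one group reached another group, and the CSB knockdown libraries held 205 and 281 reads of the gene. AKR1C1 rose 2.68-fold in the CSB knockdown (log2 difference 1.42 ± 0.15, SE; 95% interval 1.09 to 1.75; adjusted p = 2.59e-05). It fell in the CSA knockdown by -0.65 ± 0.15 (SE; 95% interval -0.97 to -0.32; adjusted p = 0.00872). The knockdowns differed 4.19-fold (log2 difference 2.07 ± 0.15, SE; adjusted p = 5.09e-07). The rise in the CSB knockdown kept its call under all 19 alternatives. The fall in the CSA knockdown lost its call without control replicate 1, CSA replicate 1 or 2 or CSB replicate 1 or 2, with adjusted p from 0.0857 to 0.119, and also by DESeq2, without the mean-variance trend and with only the 2 groups in the fit.

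AKR1C1 lies on chromosome 10 (hg38, 4963253 to 5107522, plus strand) in a cluster of near-identical genes, and its listed span overlaps AKR1C2 on the opposite strand and AKR1C3 on the same strand. Over the 969 coding bases in GENCODE v29, AKR1C1 was 98% identical to AKR1C2 (19 bases differing), 91.4% to AKR1C3 and 88.5% to AKR1C4. Of all 50-base stretches of the AKR1C1 coding sequence, 51.6% stood unchanged in AKR1C2, so reads of that length cannot always be told apart. The first 60 coding bases show how little separates the genes; capitals mark bases that differ from AKR1C1.
AKR1C1: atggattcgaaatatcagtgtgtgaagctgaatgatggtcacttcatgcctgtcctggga
AKR1C2: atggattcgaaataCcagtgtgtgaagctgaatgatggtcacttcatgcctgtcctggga
AKR1C3: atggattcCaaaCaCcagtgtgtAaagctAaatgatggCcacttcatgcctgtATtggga
AKR1C4: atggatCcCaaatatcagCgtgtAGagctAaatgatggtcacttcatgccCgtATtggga
In the tables AKR1C2 was at 3.86 to 9.95 scaled counts, AKR1C3 at 0 to 3.30, and AKR1C4 had no entry. The sources used here do not give the way reads were shared between AKR1C1 and AKR1C2. The AKR1C1 values may thus hold reads of its copies.

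HMOX1, on chromosome 22 (hg38, 35380361 to 35394214, plus strand), encodes the inducible haem oxygenase. Its scaled counts were 46.8 and 54.0 in control, 27.1 and 23.8 in the CSA knockdown and, in the CSB knockdown, 80.4 and 74.3. The groups did not overlap, as for NQO1 and AKR1C1. HMOX1 fell in the CSA knockdown by a log2 difference of -0.96 ± 0.21 (SE; 95% interval -1.42 to -0.49; adjusted p = 0.00695). In the CSB knockdown it was 0.61 ± 0.21 higher than in control (SE; 95% interval 0.15 to 1.07), which did not pass the test (adjusted p = 0.0564). The knockdowns differed 2.96-fold (log2 difference 1.57 ± 0.21, SE; adjusted p = 0.000105), and this call held under all 19 alternatives. The CSA call was lost without control replicate 1 or 2, CSA replicate 2, or CSB replicate 1 or 2, with adjusted p from 0.0657 to 0.111, and also with only the 2 groups in the fit. HMOX2, which encodes the constitutive haem oxygenase, did not pass in either comparison with control.

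NQO1, AKR1C1 and HMOX1 had the same order of groups as the summed level of the 13 mesenchymal-type markers, lowest in the CSA knockdown and highest in the CSB knockdown. The summed level of the 14 adrenergic markers had the opposite order, but single markers of that list differed. Of these 14, 6 rose and 3 fell in the CSA knockdown, and 4 rose and 5 fell in the CSB knockdown. CHGA had that order (15330 and 14469 in control, 22906 and 25867 in the CSA knockdown, 3566 and 3681 in the CSB knockdown). GATA3 had the order of NQO1 instead (13075.5 and 13315, 10527 and 10761, then 14690.5 and 15147, in the same groups), as did ISL1 and NCAM1. Of the 13 mesenchymal-type markers, 7 fell and 0 rose in the CSA knockdown, and 8 rose and 2 fell in the CSB knockdown. CD44 stood at 175 and 206 scaled counts in control, at 125 and 109 in the CSA knockdown, and at 479 and 475 in the CSB knockdown. SNAI2, a transcription factor of mesenchymal cells, stood at 394 and 366, at 183 and 136, and at 1045 and 1010. Other markers of the list did not share that order: THY1 was lowest in the CSB knockdown (1126 and 1088 against 1643 and 1677 in control), YAP1 was lower there than in control (303 and 297 against 397 and 401), and PDGFRA was higher in the CSA knockdown (1233.5 and 1121.5) than in control (1038 and 1048.5). The part of such cells or of their programme in the 3 antioxidant genes was not tested. Summed over their lists, 7 Schwann or glial markers were at 114 to 152 scaled counts a library, 5 endothelial markers at 9.65 to 17.2 and 6 epithelial markers at 168 to 224. The blood markers were at 17.6 to 21.9, apart from control replicate 2 at 397 with its HBB reads. SOX10, CD68, CD3E, PECAM1 and KRT5 had no reads.

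SLC7A11, on chromosome 4 (hg38, 138164097 to 138242349, minus strand), encodes the transport subunit of the cystine-glutamate exchanger xCT. It was at 34.8 and 60.8 scaled counts in control, 9.76 and 12.4 in the CSA knockdown and, in the CSB knockdown, 49.5 and 30.5. Both CSA knockdown libraries lay under all others, while the control and CSB knockdown libraries overlapped. SLC7A11 fell in the CSA knockdown by a log2 difference of -1.97 ± 0.35 (SE; 95% interval -2.73 to -1.21; adjusted p = 0.00153), the largest change of the 9 genes in that comparison. The CSB knockdown did not pass against control (log2 difference -0.24 ± 0.35, SE; 95% interval -0.99 to 0.52; adjusted p = 0.689). The CSB knockdown was 3.33-fold above the CSA knockdown (log2 difference 1.73 ± 0.35 SE, limma adjusted p = 0.0021). This call was lost without CSA replicate 1 or 2 or CSB replicate 1 or 2, and without the mean-variance trend. The log2 difference ran from 1.393 to 2.074 over the 19 alternatives. The SLC7A11 levels rest on few reads, 35 and 63 in control against 9 and 13 in the CSA knockdown. The CSA call was lost with any of the 6 libraries left out, with only the 2 groups in the fit and without the mean-variance trend. Its log2 difference ran from -2.363 to -1.577 over the 19 alternatives.

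SLC3A2 encodes the heavy chain that carries xCT and other amino acid transporters to the membrane. It fell in the CSA knockdown (log2 difference -0.32, adjusted p = 0.00554) and rose in the CSB knockdown (0.22, adjusted p = 0.0352). The SLC3A2 call in the CSA knockdown was lost without any 1 library other than CSA replicate 2 (adjusted p from 0.0793 to 0.183), and that in the CSB knockdown without any 1 library other than CSA replicate 1 (adjusted p from 0.055 to 0.36).

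GCLC and GCLM encode the catalytic and the modifier subunit of glutamate-cysteine ligase, the rate-limiting enzyme of glutathione synthesis. GCLC (chromosome 6, 53497341 to 53616970, minus strand) was at 809 and 798 scaled counts in control, 740.3 and 662 in the CSA knockdown and, in the CSB knockdown, 784 and 865. GCLM (chromosome 1, 93885205 to 93909456, minus strand) was at 364 and 372, at 333 and 289.9, and at 379.8 and 343. For both genes the CSA knockdown libraries lay under the control libraries, and the CSB knockdown overlapped control. Neither passed against control in the CSA knockdown, with log2 differences of -0.20 ± 0.07 for GCLC (SE; 95% interval -0.36 to -0.04; adjusted p = 0.0894) and -0.24 ± 0.09 for GCLM (SE; 95% interval -0.44 to -0.04; adjusted p = 0.0922). In the CSB knockdown the intervals were -0.13 to 0.20 for GCLC and -0.23 to 0.17 for GCLM. GCLC was higher in the CSB than in the CSA knockdown (log2 difference 0.23 ± 0.07 SE, limma adjusted p = 0.0316). This call was kept under 5 of the 19 alternatives, with log2 differences from 0.149 to 0.314 over the 19. It was lost with any 1 library left out, by edgeR, by DESeq2, and after total-count, upper quartile or TMM scaling. The call was also lost with the length trend removed, with only the 2 groups in the fit and without the mean-variance trend. GCLM missed the threshold between the knockdowns (0.22 ± 0.09 SE, limma adjusted p = 0.104).

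TXNRD1, on chromosome 12 (hg38, 104215779 to 104350305, plus strand), encodes the cytosolic thioredoxin reductase, which uses NADPH to keep thioredoxin reduced. It was at 4430.1 and 4592 scaled counts in control, 3141 and 3032 in the CSA knockdown and, in the CSB knockdown, 3492 and 3658. Each group was clear of the others, with control highest and the CSA knockdown lowest. TXNRD1 fell in the CSA knockdown by a log2 difference of -0.55 ± 0.05 (SE; adjusted p = 1.08e-05) and in the CSB knockdown by -0.34 ± 0.05 (SE; adjusted p = 0.000397). The fall in the CSA knockdown kept its call under all 19 alternatives. The fall in the CSB knockdown lost its call without control replicate 2 (adjusted p = 0.0591) or CSB replicate 1 (adjusted p = 0.0524), and without the mean-variance trend (adjusted p = 0.083). The difference between the knockdowns (0.21 ± 0.05 SE, limma adjusted p = 0.00657) kept its call under 11 of the 19 alternatives. Its log2 difference ran from 0.125 to 0.245 over the 19. The call was lost without CSA replicate 2 or CSB replicate 1 or 2, after TMM scaling, by edgeR and by DESeq2. It was also lost with the length trend removed and without the mean-variance trend. The processed pseudogene RPL18AP3 lies within the span of TXNRD1, at 612 to 907 scaled counts. TXNRD2 and TXNRD3, the mitochondrial and the testis-enriched reductase genes, did not pass in either comparison with control.

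SRXN1, on chromosome 20 (hg38, 646615 to 653370, minus strand), encodes sulfiredoxin, which repairs over-oxidised peroxiredoxins. It was at 38.8 and 20.3 scaled counts in control, 19.5 and 38.2 in the CSA knockdown and, in the CSB knockdown, 30.8 and 26.4. The 3 groups overlapped. The 95% intervals of the log2 difference ran from -0.86 to 0.79 in the CSA knockdown and from -0.80 to 0.84 in the CSB knockdown, so that a change of the size seen for NQO1 was not detectable at this depth of 18 to 40 reads a library.

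TKT, on chromosome 3 (hg38, 53224707 to 53256052, minus strand), encodes transketolase of the pentose phosphate pathway, which is a source of NADPH. It was at 5001 and 5059 scaled counts in control, 4494 and 4345 in the CSA knockdown and, in the CSB knockdown, 3604 and 3692. The groups did not overlap, and the CSB knockdown was lowest. TKT fell in the CSB knockdown by a log2 difference of -0.46 ± 0.05 (SE; adjusted p = 2.15e-05), a call kept under all 19 alternatives, and in the CSA knockdown by -0.19 ± 0.05 (SE; adjusted p = 0.0154). It was also lower in the CSB than in the CSA knockdown (-0.28 ± 0.05, SE; adjusted p = 0.000694, or 0.0756 without the mean-variance trend), the reverse of the order seen for NQO1, AKR1C1 and HMOX1. The call in the CSA knockdown was lost without control replicate 1 or 2, CSA replicate 2, or CSB replicate 1 or 2, with adjusted p from 0.0649 to 0.155, and also without the mean-variance trend and with only the 2 groups in the fit. TKTL1, its close relative, was at 9.08 scaled counts or less, and TKTL2 had no entry.

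**Figure D2:**
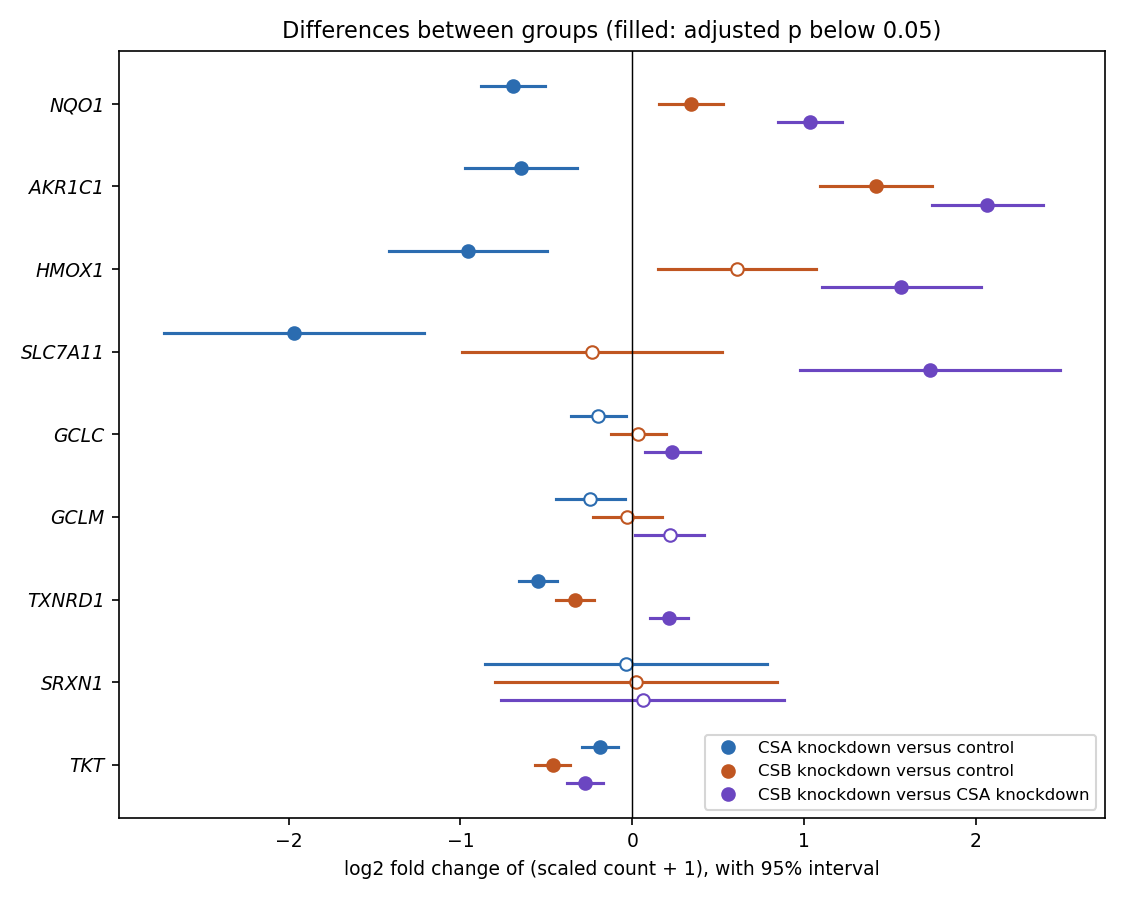
Log2 differences of (scaled count + 1) on the x axis with 95% intervals for each of the 9 genes (y axis) in the 3 comparisons; filled points have a limma adjusted p below 0.05. NQO1 and AKR1C1 are the genes with filled points on opposite sides of 0 in the comparisons of the CSA and CSB knockdowns with control, and the intervals of SRXN1 are the widest.

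Per kilobase of the gene length listed in the deposited tables, the control levels spanned from TXNRD1 at 672 ± 17.1 scaled counts (SD, n = 2) and TKT at 529 ± 4.33 to SLC7A11 at 4.96 ± 1.90. NQO1 followed at 109 ± 3.39, GCLC at 94.9 ± 0.913, GCLM at 67.9 ± 1.08, HMOX1 at 20.9 ± 2.14, SRXN1 at 10.9 ± 4.86 and AKR1C1 at 9.66 ± 1.46. SRXN1 and AKR1C1 overlapped in control, and all other neighbours in that order were apart. In the CSA knockdown TXNRD1 (452.0 to 468) and TKT (457 to 473) overlapped, GCLC (78.2 to 87.5) stood above NQO1 (63.9 to 70.3), and SRXN1 overlapped HMOX1 and AKR1C1 was under both. In the CSB knockdown AKR1C1 (25.5 to 26.2) stood above SRXN1 (9.79 to 11.4), with no neighbours overlapping. The listed length of AKR1C1, 8834 bases, is far over its coding length, and the sources used here do not give which exons it counts.

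**Figure D3:**
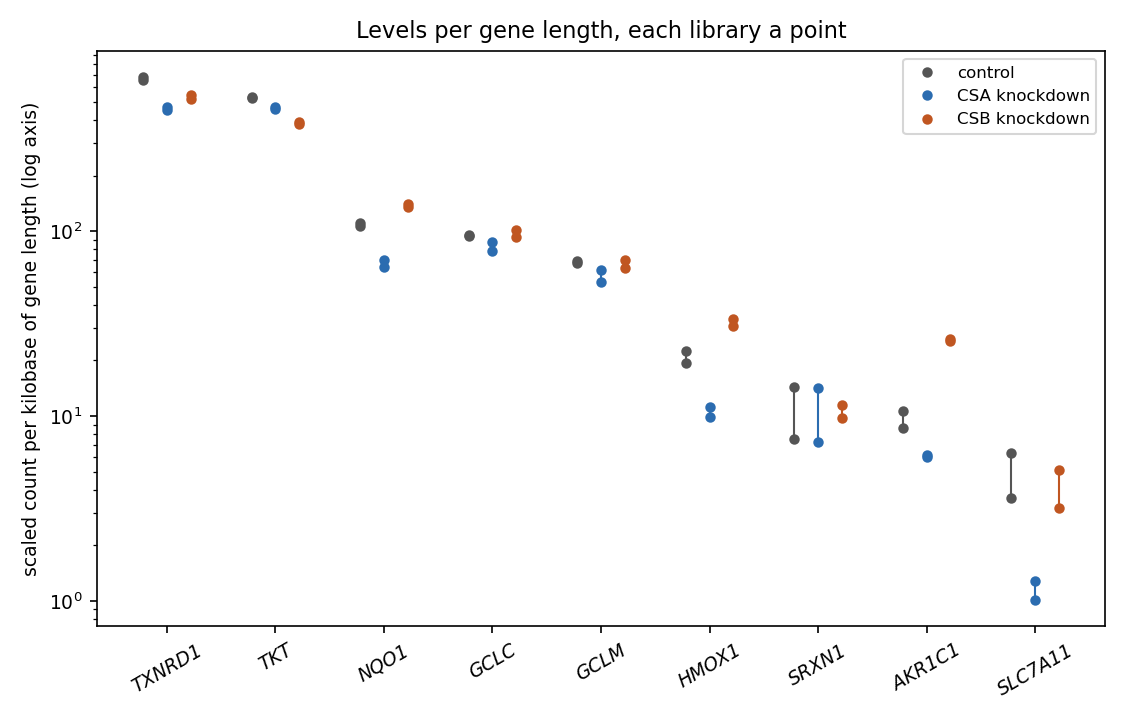
Scaled count per kilobase of listed gene length (y axis, log scale) of the 9 genes (x axis, by control level); each point is a library and a line joins the 2 libraries of a group. TXNRD1 and TKT lie highest in all 3 groups and SLC7A11 lowest, while AKR1C1 passes SRXN1 in the CSB knockdown.

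The spread of the 9 profiles over the 6 libraries was compared as the root mean square difference between log2 profiles, each centred on its own mean. GCLC and GCLM, the subunits of one enzyme, were the closest pair at 0.09. NQO1 and HMOX1 were at 0.24, TXNRD1 and TKT at 0.21, and HMOX1 and AKR1C1 at 0.37. AKR1C1 and TKT were farthest apart, at 1.02, followed by SRXN1 and SLC7A11 at 1.01. This measure favours genes that vary little: GCLC and GCLM spread by 0.12 and 0.13 around their means, SLC7A11 by 0.93 and AKR1C1 by 0.87. The same 6 libraries underlie every pair, so the distances are a description.

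**Figure D4:**
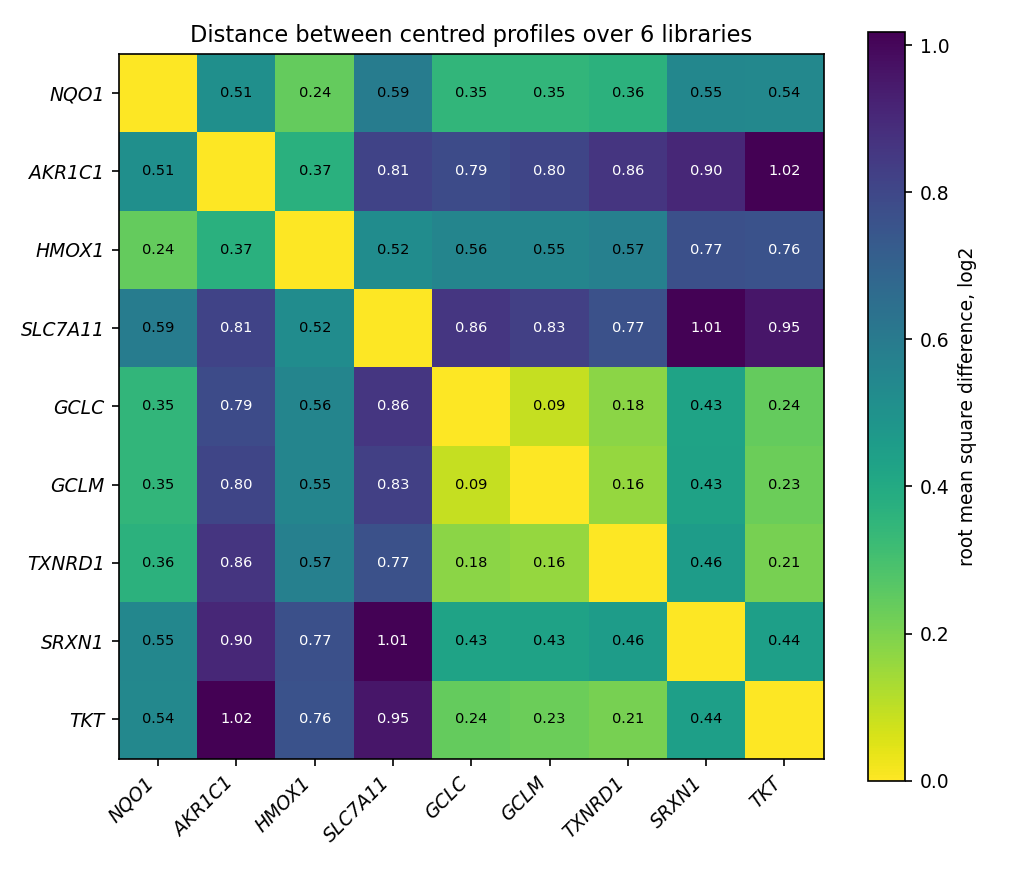
Root mean square difference (colour scale and printed values, log2 units) between the centred profiles of each pair of the 9 genes over 6 libraries. GCLC, GCLM, TXNRD1 and TKT form a block of small distances of at most 0.24, and AKR1C1 and SLC7A11 are the rows of largest distances.

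Among 13396 other genes averaging 50 scaled counts or more, the nearest profiles to NQO1 were those of TCF7L2 (0.02), SMARCD3 (0.04) and FAM64A (0.04). The nearest to AKR1C1 were ADAMTS5 (0.10), CRIM1 (0.10) and FZD8 (0.10), and the nearest to HMOX1 were KIAA1462 (0.05), PXDC1 (0.06) and C1QTNF4 (0.07). TXNRD1 was nearest to MCM4 (0.03), MTHFD1L (0.03) and ACSL3 (0.04), and TKT to YWHAQ (0.01), MEAF6 (0.02) and UBE2L3 (0.02). GCLC was nearest to NOM1 (0.02), ZNF106 (0.03) and SMC5 (0.03), and GCLM to CEP57L1 (0.02), ZNF829 (0.03) and RHNO1 (0.03). None of these is one of the 9 genes or of the pathway lists described next. SRXN1 and SLC7A11 were too low for this ranking.

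Other genes of the pathway were described in 8 lists that leave out the 9 genes. Over all tested genes, 8.37% rose and 10.4% fell in the CSA knockdown, and 14.8% rose and 8.86% fell in the CSB knockdown, to set beside the counts of each list. Among 13397 tested genes averaging 50 scaled counts or more, 2141 rose and 2648 fell in the CSA knockdown. In the CSB knockdown, 3714 of these rose and 2321 fell. After TMM scaling, 3004 of all 28388 tested genes rose and 3301 fell in the CSB knockdown. Of the 17 genes that control NRF2, 8 rose and 0 fell in the CSB knockdown (6 and 1 after TMM scaling; median log2 difference 0.20), and 4 rose and 3 fell in the CSA knockdown (median 0.02). NFE2L2 itself did not pass in the CSA knockdown (-0.06, adjusted p = 0.626) or in the CSB knockdown (-0.14, adjusted p = 0.217). KEAP1 fell in the CSA knockdown (-0.20, adjusted p = 0.0131) and did not pass in the CSB knockdown (0.01, adjusted p = 0.914; its sign turned under other scalings). The repressor gene BACH1 fell in the CSA knockdown (-0.34, adjusted p = 0.0033) and rose in the CSB knockdown (0.31, adjusted p = 0.00444), and BACH2 rose in both (0.36 and 0.82). Of the small MAF genes, MAFG rose in both (0.16 and 0.20), MAFK rose in the CSB knockdown (0.47, adjusted p = 0.00196) and MAFF did not pass (0.25 and 0.22). BTRC, a ligase adaptor that targets NRF2 independently of KEAP1, rose in the CSA knockdown (0.36), and DPP3, which binds KEAP1, rose in the CSB knockdown (0.34). Leaving out 1 library in turn, 1 to 9 of the 17 rose and 0 fell in the CSB knockdown, and 0 to 1 rose and 0 to 2 fell in the CSA knockdown. Without control replicate 2, 0 of the 17 passed in the CSA knockdown and 1 rose in the CSB knockdown. Of the calls named here, the rise of BACH2 in the CSB knockdown alone held with each library left out.

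Among 21 other genes of glutathione synthesis and use, 8 fell and 1 rose in the CSA knockdown (median log2 difference -0.16), and 5 rose and 5 fell in the CSB knockdown (4 and 5 after TMM scaling; median -0.04). CHAC1, which degrades glutathione (-0.80), and GLRX2, a mitochondrial glutaredoxin (-0.77), fell in the CSA knockdown. GGT1, which splits extracellular glutathione, rose in both (0.69 and 0.99), GPX7, a peroxidase of the endoplasmic reticulum, rose in the CSB knockdown (0.82), and CHAC2 fell there (-0.67). Of 14 tested glutathione transferase genes of 18, 3 rose and 2 fell in the CSA knockdown, and 1 rose and 3 fell in the CSB knockdown (0 and 4 after TMM scaling). GSTP1 (-0.33 and -0.55) and GSTM3 (-0.46 and -0.40) fell in both, whereas GSTZ1 rose in the CSA knockdown (0.40) and fell in the CSB knockdown (-0.62). Over the fits without 1 library, 0 to 6 of the 21 glutathione genes fell and 0 to 1 rose in the CSA knockdown, and in the CSB knockdown 0 to 5 rose and 0 to 5 fell. Of the 14 transferase genes, 0 to 1 rose and 1 to 2 fell in the CSA knockdown over these fits, and 0 to 1 rose and 2 to 3 fell in the CSB knockdown. Without control replicate 2, 0 of the 21 rose and 1 fell in the CSA knockdown, and 1 rose and 0 fell in the CSB knockdown, while 0 of the 14 rose in either, 1 fell in the former and 3 fell in the latter. GSTM3 in the CSA knockdown and GSTP1 and GSTZ1 in the CSB knockdown kept their calls with each library left out, and the other calls named here lost theirs without at least 1 library.

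Of 21 thioredoxin and peroxiredoxin genes, 7 fell and 3 rose in the CSA knockdown (median log2 difference -0.05), and 6 rose and 6 fell in the CSB knockdown (2 and 7 after TMM scaling; median -0.07). MSRB3 (-1.04) and MSRA (-0.69), which reduce oxidised methionine, and SESN1, a stress-induced sestrin (-0.89), fell in the CSA knockdown. In the CSB knockdown MSRB2 (-0.93) and PRDX3, a mitochondrial peroxiredoxin (-0.62), fell and SESN2 rose (0.54). Of 20 tested genes of NADPH supply, 7 fell and 1 rose in each knockdown against the shared controls (medians -0.19 and -0.15), and 11 fell and 1 rose in the CSB knockdown after TMM scaling. ME1, the cytosolic malic enzyme (-0.59 and -0.43), and MTHFD2, of mitochondrial folate metabolism (-0.48 and -0.75), fell in both. IDH2 fell in the CSA knockdown (-0.58), and IDH1, the cytosolic isocitrate dehydrogenase, fell in the CSB knockdown (-1.24, adjusted p = 8e-08). Over such fits, 2 to 7 of the thioredoxin and peroxiredoxin genes fell and 1 rose in the CSA knockdown, and 4 to 6 fell and 0 to 5 rose in the CSB knockdown. Of the genes of NADPH supply, 3 to 5 fell in the CSA knockdown and 3 to 7 in the CSB knockdown, and 0 to 1 rose in each. Without control replicate 2, 1 rose and 3 fell of the thioredoxin and peroxiredoxin genes in the CSA knockdown, and 1 rose and 4 fell in the CSB knockdown; of the genes of NADPH supply 4 fell and 0 rose in each. SESN1, ME1, IDH2 and MTHFD2 in the CSA knockdown and MSRB2, PRDX3, IDH1 and MTHFD2 in the CSB knockdown kept their calls with each library left out. MSRB3, MSRA, and in the CSB knockdown SESN2 and ME1, lost theirs without at least 1 library.

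Of 26 tested genes for quinone, carbonyl and export functions, 9 fell and 2 rose in the CSA knockdown (median log2 difference -0.24), and 4 rose and 2 fell in the CSB knockdown (3 and 6 after TMM scaling; median -0.03). OSGIN1, a stress-induced growth inhibitor and known NRF2 target, stood at 63.7 and 52.1 scaled counts in control, at 16.3 and 23.8 in the CSA knockdown, and at 88.1 and 133 in the CSB knockdown. It fell in the former (-1.50, adjusted p = 0.00138) and rose in the latter (0.90, adjusted p = 0.0253), the directions of NQO1 and AKR1C1. AKR7A3 (-0.86) and the exporter gene ABCC3 (-0.77) fell in the CSA knockdown, and EPHX1, an epoxide hydrolase (0.75), and ABCC5 (0.28) rose in the CSB knockdown. NQO2, the nearest relative of NQO1, did not pass in either (-0.15 and -0.24). Over the fits without 1 library, 2 to 7 of these genes fell and 1 rose in the CSA knockdown, and 1 to 3 rose and 0 to 1 fell in the CSB knockdown. Without control replicate 2, 1 rose and 3 fell in the CSA knockdown, and 1 rose and 0 fell in the CSB knockdown. Both OSGIN1 calls were lost with any of the 6 libraries left out (adjusted p from 0.0609 to 0.143 and from 0.0814 to 0.345), and the other calls named here were lost without at least 1 library.

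**Figure D5:**
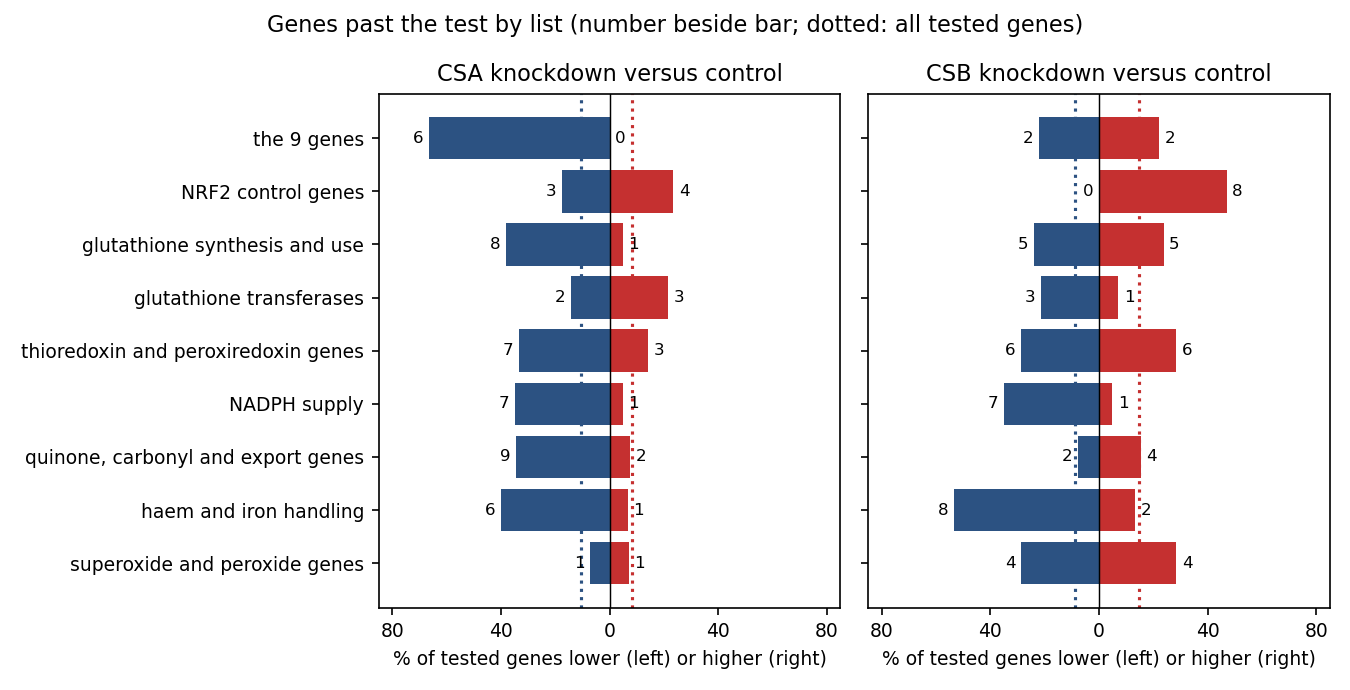
Share of tested genes (x axis, percent; lower to the left, higher to the right, with the number of genes beside each bar) of the 9 genes and of each pathway list (y axis) past the limma test in each knockdown against control; dotted lines give the share over all tested genes. The bar of the 9 genes is 6 lower and 0 higher in the CSA knockdown, and 2 lower and 2 higher in the CSB knockdown. The 9 genes and the lists were chosen with earlier results of these data known.

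All 8 lists together held 158 genes, of which 148 were tested. In the CSA knockdown 43 fell and 16 rose, and in the CSB knockdown 35 fell and 31 rose on the deposited scale, or 49 fell and 19 rose after TMM scaling. Their median log2 differences were -0.12 and -0.04, against 0.01 and 0.10 over all tested genes. Of all tested genes, 10.4% fell and 8.37% rose in the CSA knockdown, and 8.86% fell and 14.8% rose in the CSB knockdown. After TMM scaling, 3301 of the 28388 tested genes fell and 3004 rose in the latter. Of 13397 genes averaging 50 scaled counts or more, 2648 fell and 2141 rose in the CSA knockdown. In the CSB knockdown, 2321 of them fell and 3714 rose on the deposited scale. With any 1 library left out, 10 to 33 fell and 3 to 6 rose in the CSA knockdown, and 15 to 34 fell and 3 to 28 rose in the CSB knockdown. The counts without control replicate 2 were 15 lower and 3 higher in the CSA knockdown, and 18 lower and 6 higher in the CSB knockdown. Counting regulators and family copies, 26 named changes passed in the CSA knockdown and 27 in the CSB knockdown; 4 and 10 of them kept the call under all 19 alternatives, and 0 turned sign.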

How the data were processed

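Values of the 6 libraries were taken from the deposited tables. HISAT2 2.0.4, FastQC and the build hg38 are named, per the submitters' processing notes; the sources used here do not give the counter, its strand setting or the annotation release. The deposited header reads FPKM, but all values (100%, tolerance 0.01 of a step) were whole multiples of one value per library, so the deposited signal is a read count divided by one size factor, called the scaled count. A gene without an entry was taken as 0.

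limma 3.58.1 (R 4.3.3) with a mean-variance trend was fitted to log2(scaled count + 1) of genes with a mean of at least 1 in at least 1 group, with the 3 groups in one fit of 6 libraries. Adding 1 makes the fold change of low genes too small. Adjusted p-values are from this limma test with Benjamini-Hochberg adjustment over all 28388 genes, at a threshold of 0.05. The alternatives were edgeR 4.0.16 and DESeq2 1.42.0 on recovered reads, other scalings, pseudocounts, filters and variance models, a gene length correction, a replicate block, and each library left out; with a library left out, the lone library is assumed to vary like the other groups. Replicates differed by more than sampling noise: their chi-square per gene was 2.17, 6.19 and 3.10 in the control, CSA and CSB groups, where sampling noise alone gives about 1.

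The 9 genes and all lists were chosen with earlier results of these data known, among them the falls of NQO1 and TXNRD1 in the CSA knockdown. Named besides the 9 genes were, for each pathway list and knockdown, the 3 largest changes past the threshold with a mean of at least 50, the regulators NFE2L2, KEAP1, BACH and small MAF genes, close family copies, and the 3 nearest profiles. OSGIN1 levels, CD44, SNAI2, THY1, YAP1, PDGFRA and the adrenergic markers named singly were added after their values were seen. Promoter windows are RefSeq's (GRCh38.p14), and coding sequences are those of GENCODE v29.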

Additional observations from a re-analysis of the deposited data

Results flagged for a closer look

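NQO1 and AKR1C1 passed the test in opposite directions in the knockdowns, lower in the CSA knockdown and higher in the CSB knockdown. The opposite directions rest on the comparisons with the shared control libraries, in which NQO1 kept its call in the CSB knockdown under 13 of 19 alternatives and AKR1C1 kept its call in the CSA knockdown under 11 of 19. The direct comparison tests the difference between the knockdowns and not the directions. For NQO1 the CSB knockdown was above the CSA knockdown by a log2 difference of 1.035 (limma, adjusted p = 1.55e-06), with both CSB libraries above both CSA libraries. For AKR1C1 it was 2.068 (limma, adjusted p = 5.09e-07), again with both CSB libraries above both CSA libraries.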

How the results depend on the processing

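NQO1, HMOX1 and AKR1C1 between the knockdowns, NQO1 and TXNRD1 in the CSA knockdown, and AKR1C1 and TKT in the CSB knockdown kept their calls and directions under all 19 alternatives. In the CSA knockdown, 2 of the 9 genes passed when the fit held only the 2 groups compared (2460 of all genes, against 5334 as reported). Without the mean-variance trend, 3, 2 and 3 of the 9 genes passed in the CSA knockdown, in the CSB knockdown and between the knockdowns, with 1507, 1778 and 4786 of all genes (5334, 6706 and 8340 as reported). With 1 library left out, 2 to 4 of the 9 genes passed in the CSA knockdown, 2 to 4 in the CSB knockdown and 4 to 6 between them, and 1126 to 3306, 1773 to 5961 and 4384 to 6223 of all genes; such fits have fewer libraries. For the CSA knockdown edgeR called 3068 genes higher and 3051 lower. For the CSB knockdown, calls over all genes were 4191 higher and 2515 lower as reported, 3644 and 3624 by edgeR, 2195 and 2869 by DESeq2, 3268 and 3108 by total-count scaling, and 3076 and 3499 with the length trend removed; between the knockdowns they were 5128 and 3212 as reported, 4368 and 4563 by edgeR and 3132 and 3360 by DESeq2. The DESeq2 fit did not call AKR1C1 in the CSA knockdown or NQO1 in the CSB knockdown. GCLC passed in the CSA knockdown when the mean had to reach 10 (adjusted p = 0.0433), and HMOX1 passed in the CSB knockdown then and by edgeR (least adjusted p = 0.0297). The cause of these changes was not tested.

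Signs turned for genes near 0, none of them past the threshold. SRXN1 in the CSA knockdown was 0.011 by edgeR and -0.504 to 0.429 with a library left out. GCLC in the CSB knockdown was -0.029 by edgeR, -0.048 by DESeq2, -0.024 by total-count scaling, -0.005 by upper quartile, -0.041 by TMM and -0.034 with the length trend removed, and -0.035 to 0.106 with a library left out. GCLM was -0.101 to 0.045 and SLC7A11 -0.630 to 0.157 there with a library left out. SRXN1 in the CSB knockdown was -0.123, -0.135, -0.036, -0.017, -0.052 and -0.059 under the same 6 alternatives, and -0.430 to 0.474 with a library left out. Between the knockdowns SRXN1 was -0.135 by edgeR, -0.110 by DESeq2, -0.002 by total-count scaling, -0.015 by TMM and -0.036 with the length trend removed, and -0.407 to 0.526 with a library left out. KEAP1 in the CSB knockdown was -0.061, -0.076, -0.049, -0.029, -0.065 and -0.061 under the 6 alternatives above. NFE2L2 was -0.137 to 0.011 and ERCC6 -0.000 to 0.051 in the CSA knockdown with a library left out. Of the changes named from the pathway lists, 5 of 26 in the CSA knockdown and 16 of 27 in the CSB knockdown kept their call under the alternatives that left no replicate out.

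The labels do not say that replicate numbers pair the libraries, so the numbers were not taken to pair them. In a separate check, same-numbered libraries did not deviate together (correlations of -0.0402, -0.0323 and -0.0316 over 13397 genes). With the replicate block, 6, 4 and 7 of the 9 genes passed, and 5259, 6575 and 8258 of all genes. The read numbers of SLC7A11 (9 to 63 a library) and SRXN1 (18 to 40) limit the precision of their values.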

Other observations

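Of 15 tested genes of haem and iron handling, 6 fell and 1 rose in the CSA knockdown (median log2 difference -0.12), and 8 fell and 2 rose in the CSB knockdown (9 and 1 after TMM scaling; median -0.26). Over all tested genes, 10.4% fell and 8.37% rose in the CSA knockdown, and 8.86% fell and 14.8% rose in the CSB knockdown. CP, which encodes the ferroxidase ceruloplasmin, had the largest change in each: its mean scaled count was 53.9 in control, 316 in the CSA knockdown (log2 difference 2.53 ± 0.22, SE; adjusted p = 6.14e-06) and 12.8 in the CSB knockdown (-2.02 ± 0.22, SE; adjusted p = 3.03e-05). FTH1, the heavy chain of the iron store ferritin and a known NRF2 target, fell in both (-0.43 and -0.36), as did TFRC, the transferrin receptor (-0.46 and -0.55). The FTH1 value in the CSB knockdown was not followed through the alternatives. IREB2, which encodes an iron-sensing regulator of ferritin and transferrin receptor messages, fell in the CSB knockdown (-0.66). With any 1 library left out, 1 to 4 of the 15 genes fell and 1 rose in the CSA knockdown, and 3 to 8 fell and 0 to 1 rose in the CSB knockdown. Without control replicate 2, 2 fell and 1 rose in the former, and 4 fell and 1 rose in the latter. CP and TFRC in both knockdowns and IREB2 in the CSB knockdown kept their calls in each of these fits, and the FTH1 call in the CSA knockdown was lost without control replicate 1 (adjusted p = 0.0607).

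Of 14 tested superoxide and peroxide genes, 1 rose and 1 fell in the CSA knockdown (median log2 difference -0.10), and 4 rose and 4 fell in the CSB knockdown (2 and 6 after TMM scaling; median 0.04). UCP2, a mitochondrial carrier, fell in both (-0.67 and -0.67). PON2, a lactonase with antioxidant activity, rose in the CSA knockdown (0.28). In the CSB knockdown OXR1, an oxidation resistance gene, fell (-0.66) and CYBA, a subunit of NADPH oxidases, rose (0.58). With any 1 library left out, 0 to 1 of the 14 genes rose and 0 to 2 fell in the CSA knockdown, and 1 to 3 rose and 1 to 4 fell in the CSB knockdown. With control replicate 2 left out, 0 rose and 1 fell in the former, and 1 rose and 3 fell in the latter. Over all tested genes 18.8% passed in the CSA knockdown and 23.6% in the CSB knockdown. Each of the UCP2, PON2, OXR1 and CYBA calls was lost without at least 1 library.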
